A study of Mus musculus with 6 samples.

Results

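Immediate early genes are switched on within minutes of a stimulus, without new protein synthesis, by factors that already sit in the cell. Enzymatic digestion of a tissue is a well-known stimulus of this kind, and for that reason their transcripts are often read as a mark of tissue handling. The 10 genes described here are Fos, Fosb, Jun and Junb, which encode subunits of the dimeric transcription factor AP-1; Atf3, a stress-induced bZIP factor; Egr1 and Egr2, zinc finger factors; Ier2, a nuclear early response protein; Nr4a1, an orphan nuclear receptor; and Dusp1, a nuclear phosphatase that switches off MAP kinases. They are set by a list of symbols with no threshold on a value, and are 10 of the 35122 genes listed in the count table. All 10 had enough counts to be tested, among 13925 genes in all.

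RNA came from the floating adipocyte fraction of epididymal fat pads of 6 male C57BL/6 mice fed chow, 3 control and 3 aPU.1KO, with 1 library per mouse. Control mice (PU.1 fl/fl) carry loxP sites around an exon of Spi1, the gene of the transcription factor PU.1, and aPU.1KO mice (AdipoqCre_PU.1 fl/fl) carry the same sites together with Cre driven by the promoter of Adipoq, the adiponectin gene of fat cells. Every mouse is labelled as 10 to 11 months old, while the study's text gives a greater age, and the control mice are not described as carrying Cre, so that an effect of Cre itself and of the loss of PU.1 cannot be told apart. Every fat pad was minced and digested with collagenase before RNA was taken, and no undigested fat was analysed here, so the share of any level that came from the digestion was not tested. Mice are numbered 1 to 3 within a group as names only.

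Counts per library summed to between 20550252 and 69283842, the highest in control mouse 1. Spi1 was at 24.3, 6.35 and 26.7 CPM (counts scaled to a common library size) in control mice 1, 2 and 3 and at 3.20, 1.22 and 4.17 CPM in aPU.1KO mice 1, 2 and 3. No aPU.1KO value of Spi1 reached the lowest control value, and counts per gene do not resolve the deleted exon. Summed markers of mature adipocytes ranged from 28722 to 32055 CPM in control and from 33661 to 36590 CPM in aPU.1KO mice, so the markers of the labelled cell type were high in every library. Summed macrophage markers were at 411 to 1397 CPM in control and at 194 to 286 CPM in aPU.1KO mice, and 9 of those 10 markers had no overlap between the groups, against 32.1% of all genes tested. Fewer cells of a type and less RNA per cell cannot be told apart in such bulk samples. Mitochondrially encoded genes took 4.34% to 5.40% of the counts in control mice, and 6.23%, 9.38% and 5.10% in aPU.1KO mice 1, 2 and 3.

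The promoters of immediate early genes are known for short sites read by factors that are ready in a resting cell, among them the CArG box of the serum response factor, the cAMP response element (CRE) of CREB and ATF proteins, and the GC-rich site of EGR proteins. The set of promoter sequences used here, cut at RefSeq starts (GRCm38.p6), held 8 of the 10 genes and not Egr1 and Ier2. In the 250 bases before each start, both strands were searched for the letters of each site. TGACGTCA, the full CRE, was in the window of Dusp1 and in 1.55% of all 32851 windows. A looser form, TGACGNNA, of which the full CRE is 1 case, was in 5 of the 8 windows (Fos, Fosb, Junb, Atf3 and Dusp1) and in 5.66% of all windows. The EGR site GCGGGGGCG was in the windows of Fosb and Nr4a1 and in 2.57% of all windows. TGACATCA, a variant of the AP-1 site, was in the window of Jun (2.93% of all windows), and TATAAA was in that of Fos (12.4%). The CArG box (1.47%), the AP-1 site TGACTCA (4.46%) and the PU.1-type site GAGGAAGT (2.44%) were in none of the 8 windows. Sites more than 250 bases upstream, other spellings of a site, and the promoters of Egr1 and Ier2 were not searched. A gene without a match here may thus still have such a site. TGACGNNA, TGACATCA and TATAAA were searched after the first 5 sites had been. A match is a run of letters, not a measured binding site. The stretches that hold a match are shown so that the letters found can be seen in place, 5′ to 3′ on the strand of the gene, with the matched letters in capitals.
Fos (chr12:85473751-85473872, plus strand): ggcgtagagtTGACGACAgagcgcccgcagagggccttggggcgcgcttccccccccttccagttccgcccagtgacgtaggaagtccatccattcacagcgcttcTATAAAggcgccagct
Fosb (chr7:19310077-19310115, minus strand): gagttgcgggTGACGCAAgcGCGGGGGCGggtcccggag
Jun (chr4:95052250-95052277, minus strand): agcctcggggTGACATCAtgggctattt
Junb (chr8:84978837-84978864, minus strand): ttcctgacagTGACGCGAgccgcctcct
Atf3 (chr1:191183334-191183353, minus strand): attaatagcaTTACGTCAgc
Nr4a1 (chr15:101266776-101266804, plus strand): gcgtcagtggCGCCCCCGCccctctccat
Dusp1 (chr17:26508598-26508625, minus strand): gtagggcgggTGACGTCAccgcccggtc
The stretches of Fos, Fosb, Jun and Junb lie upstream of the gene as GENCODE M21 draws it. Those of Atf3, Nr4a1 and Dusp1 lie inside longer GENCODE gene models, in intron for Nr4a1 and Dusp1, and with 7 bases of exon for Atf3.

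No member passed the test between the groups. The quasi-likelihood test of edgeR called 0 of the 10 members at an adjusted p under 0.05, against 0.237% of all genes tested, and DESeq2 called 0 of 10, against 11.0% of its genes. At an unadjusted p under 0.05 edgeR had 0 of 10, against 25.7% of all genes, and DESeq2 had 2, Jun and Ier2, against 23.7% of its genes. The 3 control and the 3 aPU.1KO values overlapped for every member, while they did not overlap for 32.1% of all genes tested. The median log2 fold change, aPU.1KO over control, was 0.49 over the members, 9 above and 1 below 0, and 0.014 over all genes. With 3 mice in each group, the smallest two-sided p of an exact permutation test is 0.1.

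**Figure D1:**
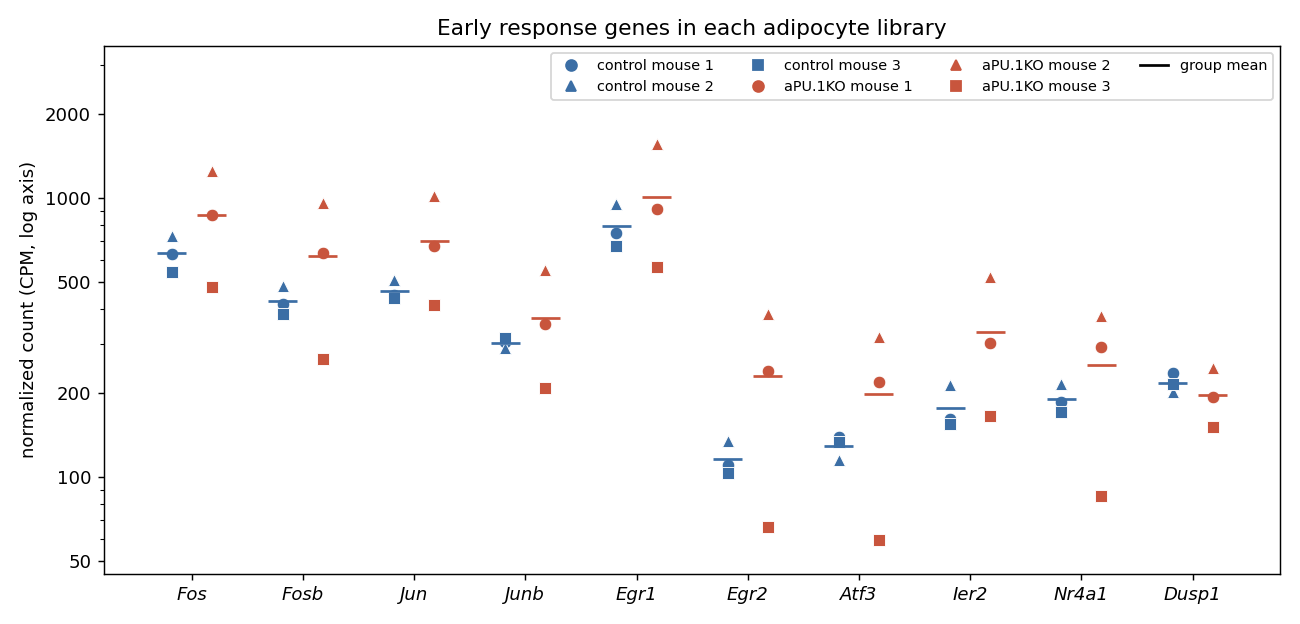
CPM (log axis) of the 10 early response genes in each of the 6 libraries, 1 point per mouse. aPU.1KO mouse 2 is the highest of the 6 for all 10 genes, and aPU.1KO mouse 3 is the lowest for 9.

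The 4 AP-1 subunits had aPU.1KO values on both sides of the controls. Fos (ENSMUSG00000021250, chromosome 12, 85473890 to 85477273, GRCm38), whose protein must pair with a JUN protein to bind DNA, was at 631, 728 and 543 CPM in control mice 1, 2 and 3 and at 866, 1249 and 478 CPM in aPU.1KO mice 1, 2 and 3. Fosb (ENSMUSG00000003545, chromosome 7, 19302696 to 19310051), a close relative of Fos, was at 418, 484 and 383 CPM in control and at 636, 955 and 264 CPM in aPU.1KO mice. For both genes aPU.1KO mice 1 and 2 lay above all controls and aPU.1KO mouse 3 below them. The log2 fold change was 0.45 for Fos (SE 0.33, adjusted p = 0.425 from edgeR) and 0.53 for Fosb (SE 0.41, adjusted p = 0.456), so neither difference was larger than the spread between mice. The amount of Fosb per Fos was 0.661 to 0.706 in control mice and 0.735, 0.765 and 0.553 in aPU.1KO mice 1, 2 and 3, so the pair kept its proportion more closely than its level.

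Jun (ENSMUSG00000052684, chromosome 4, 95049034 to 95052222), the partner that can bind DNA with FOS proteins or with itself, was at 450, 506 and 438 CPM in control and at 670, 1012 and 414 CPM in aPU.1KO mice. Junb (ENSMUSG00000052837, chromosome 8, 84974484 to 84978718), often a weaker activator than Jun, was at 305, 289 and 313 CPM in control and at 353, 553 and 208 CPM in aPU.1KO mice. Here too the controls sat in a narrow band with the aPU.1KO mice on either side. The log2 fold change was 0.59 for Jun (SE 0.30, edgeR adjusted p = 0.262) and 0.30 for Junb (SE 0.32, adjusted p = 0.593). The ratio of Junb to Jun was 0.572 to 0.716 in control and 0.502 to 0.546 in aPU.1KO mice, and so did not overlap between the groups, a measure picked after its values were seen and not tested. Exons of Jun share 232 bases with the antisense gene Junos and those of Junb share 173 bases with Prdx2 on the other strand. Whether the counting used strand is not given in the sources used here.

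Atf3 (ENSMUSG00000026628, chromosome 1, 191170296 to 191218039), a factor that mostly represses its targets and is induced by many stresses, was at 140, 115 and 133 CPM in control and at 220, 317 and 59.5 CPM in aPU.1KO mice. The controls differed little, while aPU.1KO mouse 2 had 5.33 times the level of mouse 3. The log2 fold change was 0.62 (SE 0.52, edgeR adjusted p = 0.488).

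The EGR factors stood apart from each other in the size of their spread. Egr1 (ENSMUSG00000038418, chromosome 18, 34859823 to 34864984), a target of ERK signaling, was at 747, 949 and 672 CPM in control and 915, 1553 and 563 CPM in aPU.1KO mice. Egr2 (ENSMUSG00000037868, chromosome 10, 67535475 to 67542188), also known as Krox20 and an early factor of adipocyte differentiation, was at 110, 135 and 104 CPM in control and at 239, 384 and 66.3 CPM in aPU.1KO mice. aPU.1KO mouse 1 lay within the controls for Egr1 and above them for Egr2. The log2 fold change was 0.36 for Egr1 (SE 0.35, edgeR adjusted p = 0.560) and 0.99 for Egr2 (SE 0.55, adjusted p = 0.302), the largest of the members. Egr2 per Egr1 was 0.142 to 0.154 in control mice and 0.261, 0.247 and 0.118 in aPU.1KO mice 1, 2 and 3, so the ratio followed the same split of the aPU.1KO mice as the levels.

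Nr4a1 (ENSMUSG00000023034, chromosome 15, 101254269 to 101274795), which in fat cells is induced by cAMP and adrenergic signals, was at 186, 215 and 171 CPM in control and at 293, 379 and 85.6 CPM in aPU.1KO mice. Ier2 (ENSMUSG00000053560, chromosome 8, 84661331 to 84662852) was at 161, 214 and 155 CPM in control and at 302, 522 and 165 CPM in aPU.1KO mice. Ier2 was the only member for which aPU.1KO mouse 3 was not the lowest of the 6, as it lay among the controls. The log2 fold change was 0.41 for Nr4a1 (SE 0.47, edgeR adjusted p = 0.625) and 0.90 for Ier2 (SE 0.39, adjusted p = 0.203, the lowest of the members). DESeq2 gave Ier2 an adjusted p of 0.0957.

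Dusp1 (ENSMUSG00000024190, chromosome 17, 26505590 to 26562128), which removes phosphate from p38, JNK and ERK and so limits the signals that induce early genes, was at 236, 201 and 214 CPM in control and at 193, 246 and 151 CPM in aPU.1KO mice. It was the only member with a log2 fold change below 0, at -0.15 (SE 0.18, edgeR adjusted p = 0.636), and the groups overlapped. Dusp1 per Fos was 0.277 to 0.395 in control mice and 0.222, 0.197 and 0.316 in aPU.1KO mice, so aPU.1KO mouse 3 lay within the controls and the others below them. Its exons share 11 bases with Ergic1 on the other strand.

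**Figure D2:**
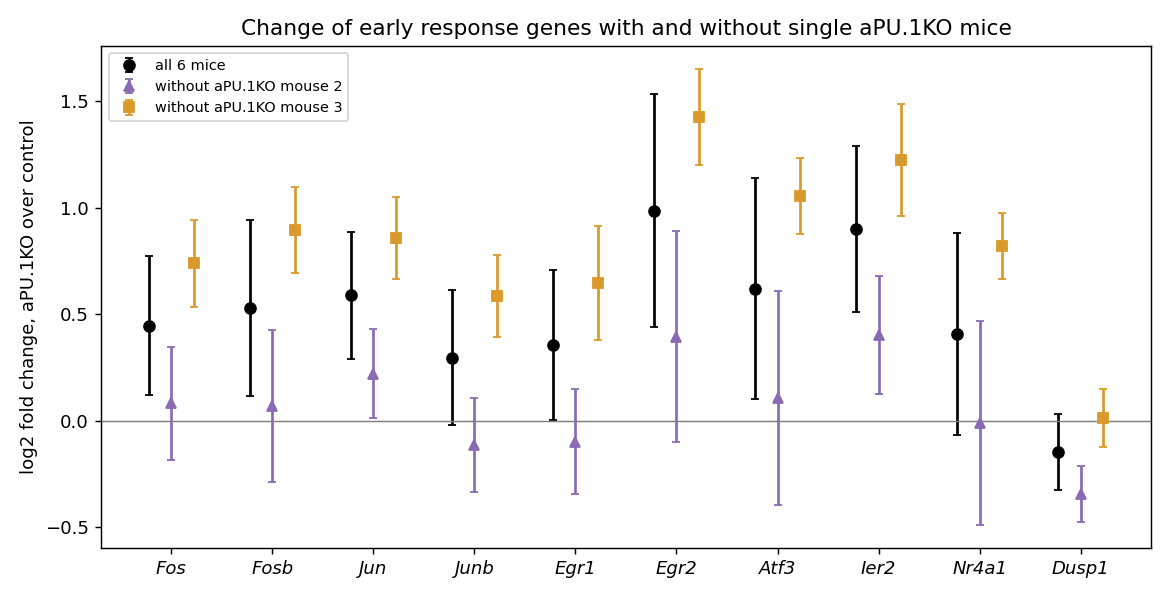
Log2 fold change, aPU.1KO over control, of each member with its standard error, beside the values with aPU.1KO mouse 2 or aPU.1KO mouse 3 left out. With mouse 3 left out every member lies higher, and with mouse 2 left out every member lies lower.

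Levels between genes were compared per length, as CPM per kilobase of merged exon. Merged exons join all annotated transcripts of a gene, 6243 bases for Fosb and 1522 for Ier2. The transcript expressed may be shorter, so the order below depends on the annotation too. In control mice Fos came first with a mean of 269.6, followed by Egr1 with 176, Jun with 146, Junb with 131 and Ier2 with 116. A lower set held Fosb with 68.6, Dusp1 with 65.6, Atf3 with 60.0 and Nr4a1 with 54.3, and Egr2 was last with 34.1. Of the neighbours in this order, Fos and Egr1, Jun and Junb, Ier2 and Fosb, and Nr4a1 and Egr2 had no overlap of their 3 control values, and the other neighbours overlapped. In aPU.1KO mice the means ran from 367 for Fos to 59.3 for Dusp1, which took the last place from Egr2 (67.6).

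The members varied together. aPU.1KO mouse 2 was the highest of the 6 mice for 10 of 10 members, against 28.2% of all genes tested, and aPU.1KO mouse 3 was the lowest for 9 of 10, against 12.1%. Both held for 9 members and for 4.34% of all genes. Among the aPU.1KO mice the order of mouse 2 over mouse 1 over mouse 3 held for 10 of 10 members and for 21.2% of all genes. Fos, Fosb, Jun, Egr2 and Nr4a1 ranked all 6 mice in 1 and the same order, with aPU.1KO mouse 3 lowest, then control mice 3, 1 and 2, then aPU.1KO mice 1 and 2. These genes share their libraries, and many are known targets of the same kinases, so the 10 are not 10 separate observations.

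Summed over the members, the early response genes took 0.355%, 0.385% and 0.337% of the counts in control mice 1, 2 and 3 and 0.449%, 0.652% and 0.247% in aPU.1KO mice 1, 2 and 3. The sum was 3383, 3835 and 3127 CPM in control and 4685, 7168 and 2454 CPM in aPU.1KO mice. The controls thus lay between aPU.1KO mouse 3 and aPU.1KO mouse 1. The share of mitochondrially encoded genes had the same order among the aPU.1KO mice as the members, highest in mouse 2, while the macrophage marker sum did not, at 286, 194 and 262 CPM in mice 1, 2 and 3. The red blood cell marker sum was 352, 1144 and 883 CPM in the same mice. The part of these in the members' levels was not tested. With the mitochondrial genes left out before scaling 0 of 10 members were called, as under every setting, so that count cannot show such a part.

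The spread between mice of 1 group set the members apart from most genes. The SD of log2 CPM in control mice had a median of 0.167 over the members and of 0.127 over all genes tested. In aPU.1KO mice it had a median of 0.782 over the members and of 0.196 over all genes. The SD was larger in aPU.1KO than in control mice for 10 of 10 members and for 66.3% of all genes. Egr2 had the widest aPU.1KO spread, with an SD of 1.31, above 98.1% of all genes, followed by Atf3 with 1.27 and Nr4a1 with 1.15. Dusp1 had the narrowest, with 0.352, above 72.1% of all genes. In control mice the highest value was 1.08 times the lowest for Junb and 1.41 times for Egr1, the ends of the range. In aPU.1KO mice it was 1.63 times the lowest for Dusp1 and 5.78 times for Egr2. The lowest count of any member in any library was 1256, of Atf3, for which counting alone gives an error of 2.82%, far below these spreads.

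**Figure D3:**
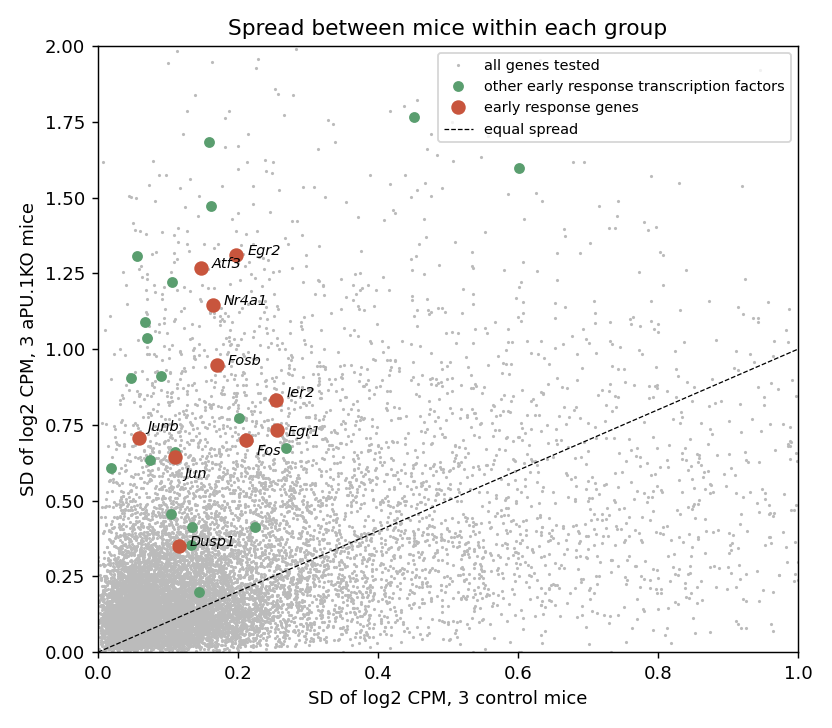
SD of log2 CPM among the 3 control mice (x axis) and the 3 aPU.1KO mice (y axis), with all genes tested in the background and the 10 members marked. The members lie above the line of equal SD, with aPU.1KO values from 0.352 (Dusp1) to 1.31 (Egr2), and 333 genes with a larger control SD and 70 with a larger aPU.1KO SD than the axes show are not drawn.

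When the mean of the other 9 members was subtracted in each library, the range over the 6 mice became smaller for 9 of the 10. On the log2 scale it went from 1.86 to 0.189 for Fosb, from 1.39 to 0.336 for Fos and from 2.53 to 0.939 for Egr2. For Dusp1 it went from 0.703 to 1.16. Fosb was thus the member closest to the common pattern and Dusp1 the one farthest from it.

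The fold changes moved with single aPU.1KO mice. Without aPU.1KO mouse 3, the log2 fold changes were 1.43 for Egr2, 1.22 for Ier2, 1.06 for Atf3, 0.90 for Fosb, 0.86 for Jun, 0.82 for Nr4a1, 0.74 for Fos, 0.65 for Egr1, 0.59 for Junb and 0.014 for Dusp1. At an unadjusted p under 0.05, 8 of 10 then passed, all but Egr1 and Dusp1, against 27.4% of all genes in the same fit, and 0 passed at an adjusted p under 0.05, with a lowest edgeR adjusted p of 0.0781. Without aPU.1KO mouse 2, the log2 fold changes were 0.40 for Ier2, 0.39 for Egr2, 0.22 for Jun, 0.11 for Atf3, 0.08 for Fos, 0.07 for Fosb, -0.01 for Nr4a1, -0.10 for Egr1, -0.11 for Junb and -0.34 for Dusp1, and 1 of 10, Dusp1, passed an unadjusted p under 0.05, against 24.9% of all genes in the same fit. No reason to leave out either mouse is given by the labels, and the direction of Junb, Egr1, Nr4a1 and Dusp1 turned with 1 mouse.

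The other early response transcription factors on a list of 20 varied much as the members did. Their SD was larger in aPU.1KO mice for 20 of 20, with a median of 0.122 in control and 0.839 in aPU.1KO mice, and aPU.1KO mouse 2 was the highest of the 6 mice for 15 and mouse 3 the lowest for 14. edgeR called 0 at an adjusted p under 0.05, and the median log2 fold change was 0.28. At an unadjusted p under 0.05 edgeR had 1 of 20, against 25.7% of all genes. This was Klf2, a factor known from shear stress in endothelium, which was at 33.2, 32.2 and 27.5 CPM in control and at 17.0, 19.0 and 22.4 CPM in aPU.1KO mice. The groups did not overlap for Klf2, and mouse 3 was the highest of the aPU.1KO mice, the opposite end from its place among the members. Its log2 fold change was -0.67 (SE 0.13, edgeR adjusted p = 0.0753), and DESeq2 called it with an adjusted p of 0.000731. Endothelial markers summed to 533 to 765 CPM in control and 320 to 689 CPM in aPU.1KO mice, and their part in the Klf2 level was not tested.

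The genes of that list with the highest mean CPM were Btg2, an antiproliferative early gene, and Klf6, a zinc finger factor. Btg2 was at 404, 510 and 353 CPM in control and 700, 912 and 367 CPM in aPU.1KO mice, with a log2 fold change of 0.64 (SE 0.32, edgeR adjusted p = 0.258). Klf6 was at 283, 287 and 243 CPM in control and 284, 326 and 203 CPM in aPU.1KO mice, with a log2 fold change of 0.002 (adjusted p = 0.996). The aPU.1KO mice took the members' order for both. Nr4a3, a relative of Nr4a1 named after its values were seen, was with Klf2 the only factor of the list without overlap between the groups, 2 of 20 against 32.1% of all genes. It was at 23.6, 18.9 and 21.3 CPM in control and 16.2, 18.8 and 2.94 CPM in aPU.1KO mice, with a log2 fold change of -0.75 (SE 0.56, edgeR adjusted p = 0.437).

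Early response genes that are not transcription factors, 20 in all, had a median log2 fold change of 0.27, and edgeR called 0 of them at an adjusted p under 0.05 and had 3 at an unadjusted p under 0.05, of which 2 were higher, against 25.7% of all genes. DESeq2 called 1 of the 20, against 11.0% of its genes. Gadd45g, a stress and growth arrest gene, had a log2 fold change of 0.39 (SE 0.16, adjusted p = 0.1803 from edgeR), and Plk2, a stress-induced kinase, one of -0.89 (adjusted p = 0.164), both with overlapping groups. Ccn1, a matrix-associated early gene, was among the 2 genes of highest mean CPM in the list and had a log2 fold change of 0.16 (adjusted p = 0.757). The SD was larger in aPU.1KO mice for 17 of the 20, with medians of 0.118 and 0.631.

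Of 26 kinases and nuclear factors that act upstream, edgeR called 0 at an adjusted p under 0.05, with a median log2 fold change of -0.08, and had 8 at an unadjusted p under 0.05, of which 7 were lower. Over all genes tested 25.7% passed at that level in either direction, so a count of 8 in 26 is near the background. In 1 direction, 7 of the 26 passed as lower, against 1913 of 13925 genes. Rps6ka1, the ERK-driven kinase RSK1, was at 12.9, 9.98 and 12.5 CPM in control and at 5.79, 6.69 and 6.58 CPM in aPU.1KO mice, without overlap. Its log2 fold change was -0.89 (edgeR adjusted p = 0.0722). Map2k6, the kinase above p38, had a log2 fold change of -0.82 (adjusted p = 0.0808 from edgeR), Mrtfa, a coactivator of the serum response factor, one of -0.83 (adjusted p = 0.0786), and Elk3, an ETS partner of that factor, one of -0.66 (adjusted p = 0.101), each without overlap. DESeq2 called 4 of the 26, all lower, against 11.0% of its genes. The 9 macrophage markers without overlap were lower as well. So were adipose progenitor markers, which summed to 1286 to 1745 CPM in control and 715 to 1024 CPM in aPU.1KO mice, with 5 of 8 lower without overlap. In the list itself 12 of 26 had no overlap, 8 lower and 4 higher, against 32.1% of all genes in either direction. Of the 13925 genes, 2156 were lower and 2320 higher without overlap. The part of macrophages or adipose progenitors in these levels was not tested. Rps6ka3, which encodes RSK2, was among the 2 of highest mean CPM and had a log2 fold change of -0.07 (adjusted p = 0.760 from edgeR). The order of the aPU.1KO mice seen in the members held for 4 of the 26.

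Of 17 genes that brake the response, edgeR called 0 at an adjusted p under 0.05, with a median log2 fold change of -0.09. At an unadjusted p under 0.05 it had 5, a share near the 25.7% of all genes in either direction. Of these 4 were lower, against 1913 of 13925 genes. DESeq2 called 3 of the 17, against 11.0% of its genes, namely Dusp4 (adjusted p = 0.0140), Spred1 (adjusted p = 0.00119) and Nab2 (adjusted p = 0.0189). Dusp4, a nuclear phosphatase like Dusp1, was at 25.9, 35.2 and 21.2 CPM in control and at 41.5, 61.4 and 42.7 CPM in aPU.1KO mice, so the groups did not overlap. Its log2 fold change was 0.83 (SE 0.23, edgeR adjusted p = 0.0980), against -0.15 for Dusp1. Spred1, an inhibitor of the RAS to ERK pathway, had a log2 fold change of -0.59 (adjusted p = 0.0764 from edgeR), Dusp2, a phosphatase of immune cells, one of -0.88 (adjusted p = 0.113), and Nab2, which holds back EGR proteins, one of -0.74 (adjusted p = 0.101), each without overlap, as for 32.1% of all genes. The macrophage and adipose progenitor marker sums were lower too, both without overlap, and their part in the lower values was not tested. Zfp36, which degrades AU-rich mRNAs such as that of Fos, had a log2 fold change of 0.52 (SE 0.35, adjusted p = 0.389). Zfp36 per Fos was 0.468 to 0.496 in control and 0.487 to 0.534 in aPU.1KO mice, so the pair kept its ratio in mice whose Fos differed 2.61 times. Zfp36l2, of the same family, had a log2 fold change of 0.37 (adjusted p = 0.363).

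Of 15 bZIP genes that can pair with AP-1 and ATF proteins 14 were tested, with a median log2 fold change of -0.12. Of these edgeR called 0 at an adjusted p under 0.05. At an unadjusted p under 0.05 it had 2, both lower, against 25.7% of all genes in either direction. DESeq2 called 1 of the 14, against 11.0% of its genes. Batf3, of dendritic cells, was 1 of the 2 from edgeR, with a log2 fold change of -1.32 (edgeR adjusted p = 0.106), and its groups did not overlap. Atf4 and Atf5, of highest mean CPM, had log2 fold changes of 0.19 (adjusted p = 0.613) and -0.08 (adjusted p = 0.514). The order of the aPU.1KO mice seen in the members held for 4 of the 14.

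**Figure D4:**
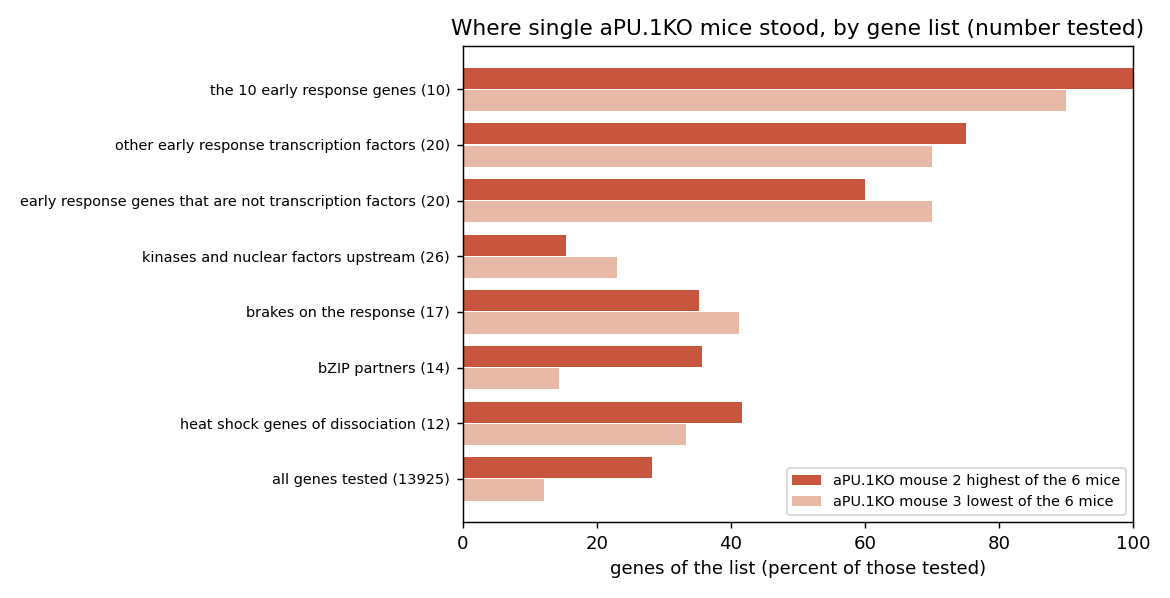
Percent of the genes of each list for which aPU.1KO mouse 2 was the highest of the 6 mice, and percent for which mouse 3 was the lowest. Over all genes tested these were 28.2% and 12.1%. Mouse 2 was highest for 10 of 10 members, 15 of 20 other early response transcription factors and 4 of 26 upstream kinases and nuclear factors. Mouse 3 was lowest for 9, 14 and 6 of these.

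The 5 genes whose log2 CPM profile over the 6 libraries lay nearest to the mean profile of the members, by the root mean square of the difference, were Zc3h12a at 0.0836, Sirt1 at 0.0882, Cyp2f2 at 0.106, Ccnl1 at 0.117 and Zfp36 at 0.122. Zc3h12a, an RNase of inflammatory mRNAs, was at 13.8, 13.8 and 13.2 CPM in control and at 20.3, 27.8 and 10.0 CPM in aPU.1KO mice. Sirt1, a NAD-dependent deacetylase, was at 38.4, 43.9 and 38.2 CPM in control and at 54.9, 74.2 and 27.8 CPM in aPU.1KO mice. The choice of these genes by their profile fixes that the aPU.1KO mice lie in the members' order. Their edgeR adjusted p ranged from 0.367 to 0.487. Among the members the same distance ran from 0.0665 for Fosb to 0.406 for Dusp1.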

How the data were processed

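RNA of the adipocyte fraction of 3 control and 3 aPU.1KO mice was sequenced, 1 library each. The authors quantified reads with Salmon (validateMappings), summed the transcripts to genes and deposited the estimated counts as whole numbers, without normalization. The submitters' processing notes name GRCm38, and the annotation they used is not given in the sources used here. Of 35122 genes, 35102 were matched to a symbol in GENCODE M21, and the others hold 0.00188% of counts. Groups came from the genotype labels. Libraries of a group were compared by chi-square, and none were duplicates.

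In R 4.3.3, edgeR 4.0.16 (filterByExpr, TMM, glmQLFit and glmQLFTest, Benjamini-Hochberg over 13925 genes) gave log2 fold changes of aPU.1KO over control and adjusted p-values. CPM used TMM-scaled library sizes, and log2 CPM a prior count of 2. The median log2 fold change of all genes was 0.014. DESeq2 1.42.0, limma-voom (limma 3.58.1), other scalings and filters, and each mouse left out were alternatives. The steps were tested on simulated data. The members and lists were chosen with earlier results of these data known. All 10 members are named, and per list the 2 genes of highest mean CPM and up to 4 of largest fold change at an unadjusted p under 0.05. The 5 genes nearest in pattern are named too. A few genes that this rule names are left out of the text.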

Additional observations from a re-analysis of the deposited data

How the results depend on the processing

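At an adjusted p under 0.05, 0 of the 10 members were called by edgeR and under every alternative run. Over all genes edgeR called 33, against 5 with at least 10 counts in every library, 146 with no filter, 1833 with DESeq2, and 0 to 1193 with a mouse left out (0 without control mouse 1, with 1718 at an unadjusted p under 0.05, 1193 without control mouse 2, and 5 to 8 without any 1 of the other 4 mice). At an unadjusted p under 0.05 there were 3575 genes, and 1718 to 3922 with a mouse left out. There were 0 members at that level, 1 with no filter, 2 with DESeq2 and 0 to 8 with a mouse left out (8 without aPU.1KO mouse 3). Of the genes of the 6 lists 0 were called, against 12 with DESeq2 (11 of the genes edgeR tested, and Batf, which its filter removed) and 0 to 7 with a mouse left out (7 without control mouse 2), and 24 were at an unadjusted p under 0.05, 11 to 41 with a mouse left out. With a mouse left out, the log2 fold change ran from -0.11 to 0.59 for Junb, from -0.10 to 0.65 for Egr1, from -0.011 to 0.82 for Nr4a1 and from -0.34 to 0.014 for Dusp1, and turned its direction without aPU.1KO mouse 2 for the first 3 and without mouse 3 for Dusp1. The cause of these shifts was not tested. Leaving out the mitochondrial genes, added after the data were seen, left 33 genes and 0 members called. The study describes its controls as littermates, but the labels name no litter, and their mouse numbers are all different. No control could thus be paired with an aPU.1KO mouse, and no paired analysis was made. Counting error of the members was at most 2.82%.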

Other observations

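Heat shock genes are also known to answer to digestion and handling, through the factor HSF1 and not through the kinases above the early genes. Of 12 on a list, edgeR called 0 at an adjusted p under 0.05, with a median log2 fold change of 0.09. At an unadjusted p under 0.05 it had 5, against 25.7% of all genes in either direction. All 5 were higher, against 1662 of 13925 genes. Dnajb1, a cochaperone of HSP70, was at 92.3, 117 and 86.7 CPM in control mice 1, 2 and 3 and at 215, 247 and 113 CPM in aPU.1KO mice 1, 2 and 3. It took the members' order among the aPU.1KO mice, and its groups overlapped, with a log2 fold change of 0.96 (SE 0.29, edgeR adjusted p = 0.109). DESeq2 called it, with an adjusted p of 0.0149, as the only 1 of the 12, against 11.0% of its genes. Dnajb4, of the same family, had a log2 fold change of 0.36 (adjusted p = 0.102 from edgeR), Hspd1, the mitochondrial chaperonin, one of 0.29 (adjusted p = 0.128), and Hsp90aa1, the inducible HSP90, one of 0.27 (adjusted p = 0.131), each with no overlap between the groups, as for 32.1% of all genes. Hspa8 and Hsp90ab1, of highest mean CPM, are made at all times, and had log2 fold changes of -0.05 (adjusted p = 0.838) and -0.07 (adjusted p = 0.686). The order of aPU.1KO mouse 2 over mouse 1 over mouse 3 held for 5 of the 12, against 10 of 10 early response genes.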
